A study of Mus musculus with 6 samples.

Results

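The genes described here encode the enzymes and carriers that take glucose through glycolysis to pyruvate, exchange pyruvate with lactate, feed pyruvate into the mitochondria, turn the tricarboxylic acid (TCA) cycle and run the pentose phosphate branch. They were chosen by name, as a list of 48 genes. Of these, 42 had a probe set named for them alone on the array and 6 (Gpi1, Pgk1, Pgam1, Eno1, Suclg2 and G6pdx) were not analysed here. The 42 were set against all 19661 genes tested.

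The cells were megakaryocyte-erythroid progenitors, the bone marrow cells from which red cells and platelets descend, sorted from B6.129 mice as Kit-positive cells that lacked lineage markers, Sca1 and CD34 and had little FcgrII/III. A first group of 3 arrays came from Fog1+/+ mice, with both Fog1 alleles intact, and a second group of 3 from Fog1ki/ki mice, homozygous for a knock-in at Fog1. FOG1, the product of Zfpm1, is a cofactor of GATA1, and the knock-in protein, as the study is generally known, has lost its contact with the NuRD chromatin complex. The labels call the arrays biological replicates but give no age, sex or number of mice per array, so a p-value here measures the spread between these arrays.

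As background, glycolysis yields ATP and pyruvate in the cytosol, and lactate dehydrogenase interconverts pyruvate and lactate as a tetramer of A (Ldha) and B (Ldhb) subunits. The A subunit is known as the muscle form and the B subunit as the heart form. Mature red cells have no mitochondria and live on glycolysis, in which the red cell pyruvate kinase made from Pklr takes the last step, while their nucleated precursors also run the TCA cycle and use its succinyl-CoA for haem.

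Several erythroid genes were bright on all arrays, while some genes of the sorting gate did not overlap between genotypes. Car1, an erythroid carbonic anhydrase, lay between 12.73 and 12.96 on the log2 scale and the erythroid factor Klf1 between 8.23 and 8.37. The erythroid genes Slc4a1 (6.49 to 7.14) and Alas2 (6.86 to 7.23) lay below the upper quartile of every array (7.61 to 7.68). Cd34 lay below the lower quartile of every array. Kit, the receptor on which the cells were gated, measured 10.26, 10.30 and 10.30 in Fog1+/+ and 10.05, 9.72 and 9.96 in Fog1ki/ki, lower without overlap (log2 -0.38, limma adjusted p = 0.232). Fcgr2b, which encodes one of the gated Fc receptors, measured 4.71, 4.73 and 4.75 against 5.07, 4.98 and 5.02, higher without overlap (log2 0.29, limma adjusted p = 0.248). Its Fog1+/+ values lay below the lower quartile of every array (4.81 to 4.92). Fcgr3 stood at log2 0.12, with overlapping arrays. The genotypes did not overlap in 14.8% of all genes, and none of these gate genes passed. Array medians lay between 6.02 and 6.15. Replicate 3 of each genotype had low values of Y-linked genes, and Fog1ki/ki replicate 2 had the lowest value of the 6 arrays in 18 of the 42 carbon metabolism genes (42.9%, against 16.0% of all genes).

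One gene of the 42 passed the test over all genes. Ldhb was higher in Fog1ki/ki, and no gene fell, while 41 did not pass (limma adjusted p under 0.05). The share that passed was 2.38%, beside 0.773% of all genes tested (0.376% higher and 0.397% lower), which with a single call is no result about the list. Around this one call, most other genes of the list had slightly lower means in Fog1ki/ki, among them 6 of 7 genes of pyruvate dehydrogenase and its kinases and 11 of 12 of the TCA cycle. Of the 42 means, 30 were lower and 12 higher in Fog1ki/ki (71.4% lower, beside 42.8% of all genes). The median log2 difference was -0.10 beside 0.02 over all genes. At an unadjusted p under 0.05, 9 genes were lower and 3 higher (28.6% of the list in all), beside 4.58% and 4.99% of all genes (9.57% in all). These are small differences, from -0.53 to 0.26 leaving out Ldhb, and none of the 9 passed after adjustment over all genes.

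**Figure D1:**
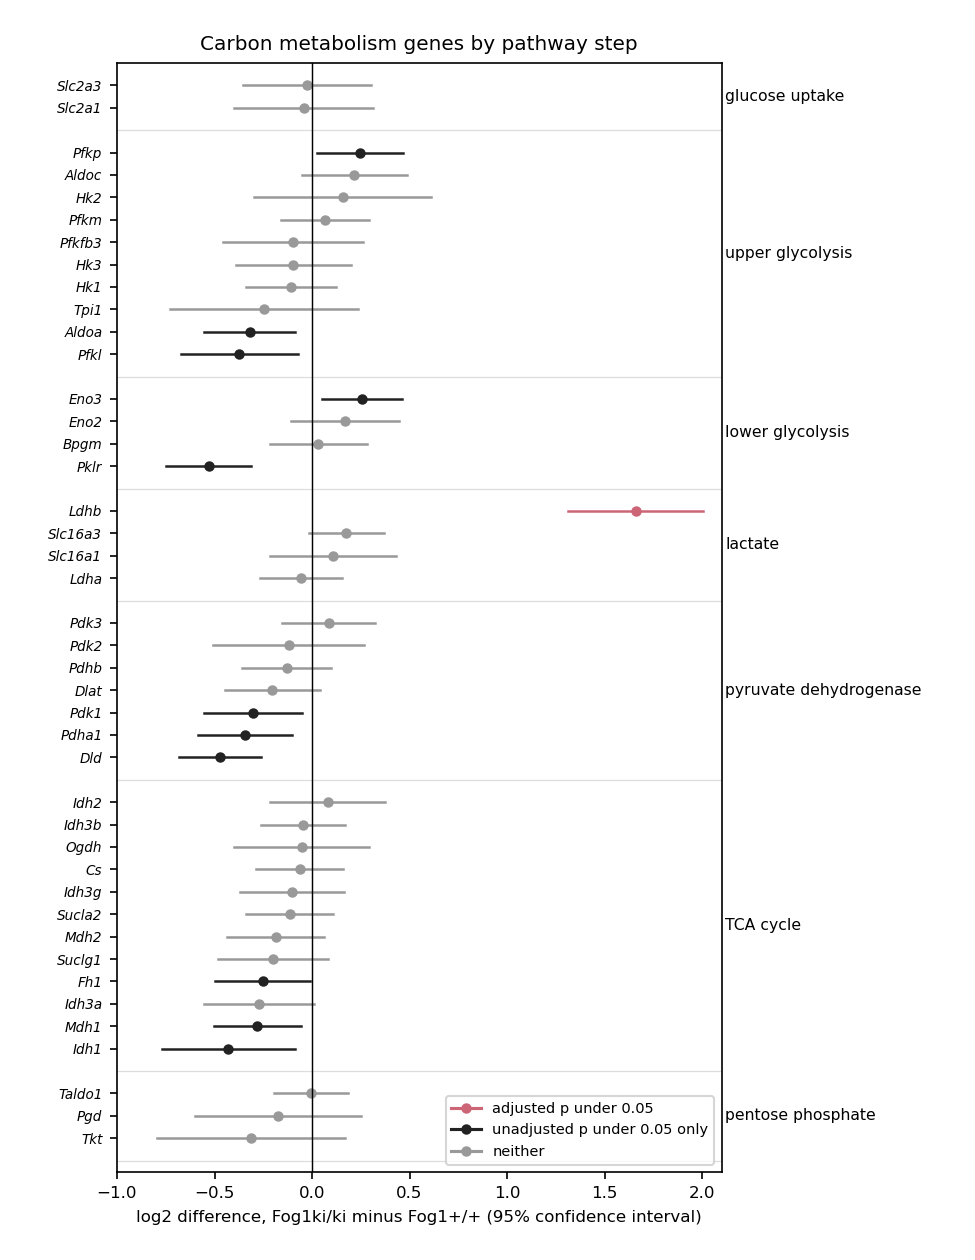
Log2 difference between Fog1ki/ki and Fog1+/+ (x axis, log2 units) for each of the 42 genes, grouped by pathway step. Points are limma estimates from 3 arrays per genotype and lines their 95% confidence intervals. Ldhb stands at 1.66, and all other genes lie between -0.53 and 0.26.

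The lactate step held the one call. The 250 bases before the RefSeq start of Ldhb are shown beside those of Ldha, because the subunits differed in their response, and beside those of the upstream start of Pklr, which had the next smallest p. Each is written 5′ to 3′ on the strand of its gene in GRCm38.p6, at chr6:142507958-142508207 (minus strand) for Ldhb, chr7:46845554-46845803 (plus strand) for Ldha and chr3:89135892-89136141 (plus strand) for Pklr. Capitals mark matches, on either strand, to a GATA motif (AGATAA or AGATAG or TGATAA or TGATAG), the E-box CACGTG or the CACCC-type motif CACACCC.
Ldhb: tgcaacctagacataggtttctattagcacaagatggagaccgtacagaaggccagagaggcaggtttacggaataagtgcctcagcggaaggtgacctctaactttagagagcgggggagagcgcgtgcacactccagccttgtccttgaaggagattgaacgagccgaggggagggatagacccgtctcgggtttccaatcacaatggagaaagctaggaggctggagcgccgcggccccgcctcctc
Ldha: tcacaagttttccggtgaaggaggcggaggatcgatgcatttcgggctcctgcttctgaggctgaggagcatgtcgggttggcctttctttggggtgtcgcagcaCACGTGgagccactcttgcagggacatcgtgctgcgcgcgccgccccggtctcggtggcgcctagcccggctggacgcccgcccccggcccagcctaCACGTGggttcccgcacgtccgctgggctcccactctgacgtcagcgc
Pklr: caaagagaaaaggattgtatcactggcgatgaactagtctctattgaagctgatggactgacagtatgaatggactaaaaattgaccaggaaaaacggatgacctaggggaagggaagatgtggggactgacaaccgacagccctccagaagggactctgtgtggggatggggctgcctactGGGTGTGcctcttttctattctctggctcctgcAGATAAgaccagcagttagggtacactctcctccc

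The Ldhb window held none of these letters, which says only that they are not in this window. The Ldha window held the E-box 145 and 48 bases before the start, and the Pklr window held the CACCC-type motif 68 bases and AGATAA 35 bases before it. Among all 32851 windows of this length in the RefSeq table, 26.5% held the GATA motif, 6.02% the E-box and 6.93% the CACCC-type motif. Of the 40 carbon metabolism genes with a window, 7 held the GATA motif at one or more starts (17.5%, against 29.7% of all genes with a window). The E-box was found in 6 of the 40 (15%, against 6.86%) and the CACCC-type motif in 7 (17.5%, against 7.9%). A second start of Ldha and of Pklr, not printed, held none of the 3 motifs. A match is a description of sequence, and no binding was measured.

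On the log2 RMA scale Ldhb measured 5.43, 4.95 and 5.02 in Fog1+/+ and 6.56, 6.88 and 6.94 in Fog1ki/ki. All Fog1ki/ki arrays lay above all Fog1+/+ arrays, by more than 1 log2 unit. The means were 5.13 ± 0.26 and 6.79 ± 0.20 (SD, n = 3 each), a 3.16-fold difference (log2 1.66, SE 0.15, limma adjusted p = 0.00193). By p, Ldhb ranked 20 of the 19661 genes. The Fog1+/+ values lay just above the lower quartiles of the arrays (4.81 to 4.92), a dim range in which RMA compresses differences. The call was lost without replicate 3 of both genotypes, with 2 arrays left in each (log2 1.53, limma adjusted p = 0.0865). It was kept without any single array (limma adjusted p from 0.00316 to 0.0183). The 5 tested genes on each side of Ldhb on chromosome 6 had log2 differences from -0.04 to 0.21. Of these 10, 0 passed, beside 0.773% of all genes, so that count is no result about the region.

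Ldha, the subunit that dominates in cells that make lactate, measured 10.28, 10.17 and 10.37 in Fog1+/+ and 10.23, 10.17 and 10.25 in Fog1ki/ki. The genotypes overlapped. The log2 difference was -0.06, with a 95% confidence interval from -0.27 to 0.15 (limma adjusted p = 0.902), and it turned to 0.036 with quantile normalization repeated. The interval excludes a change of the size seen for Ldhb in either direction.

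The balance of the subunits was followed as the log2 value of Ldhb minus that of Ldha within each array. Because different probe sets have no common scale, its absolute level is no ratio of transcripts, and only its change between genotypes can be read. This within-array difference was -4.85, -5.22 and -5.35 in Fog1+/+ and -3.67, -3.29 and -3.31 in Fog1ki/ki. It lay higher in 3 of 3 Fog1ki/ki arrays, by 1.72 log2 units (SE 0.19), so that the ratio of B to A subunit signal was 3.29-fold higher. An exact permutation test gave p = 0.1, two-sided, the smallest that 3 against 3 arrays allow (0.3 adjusted over 12 pairs), so this balance cannot pass a threshold of 0.05.

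The carriers that move lactate and pyruvate across the cell membrane did not pass. Slc16a3 (MCT4), which exports lactate from glycolytic cells, measured 6.73, 6.74 and 6.71 in Fog1+/+ and 6.85, 6.94 and 6.92 in Fog1ki/ki. There was no overlap, which held for 14.8% of all genes, but the difference was small (log2 0.18, SE 0.08, limma adjusted p = 0.574). Slc16a1 (MCT1), the widespread carrier, overlapped between genotypes (log2 0.11, limma adjusted p = 0.879).

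Some markers of other cells also differed between genotypes. Of 10 mast cell markers, Ms4a2 and Gata2 passed, and the summed level of the list (un-logged RMA values) was 1620 to 1670 in Fog1+/+ and 1810 to 2450 in Fog1ki/ki. Kit is also in this list, is the largest term of its sum and, as given above, was lower in Fog1ki/ki without passing. Fcer1a (log2 1.91) and Cma1 (0.21) were higher without overlap and did not pass. In Fog1ki/ki replicates 1 to 3, Ms4a2 measured 9.15, 8.64 and 7.80, Gata2 8.72, 8.05 and 8.39 and Fcer1a 7.46, 6.93 and 5.24. Ldhb measured 6.56, 6.88 and 6.94 on the same arrays. The genotypes overlapped for Cpa3 (0.53), Mcpt4 (0.21), Tpsab1 (0.13), Tpsb2 (0.07) and Hdc (0.06). Mcpt4, a protease of mature mast cells, was below the lower quartile of every array. The sums of 6 basophil and eosinophil markers, none of which passed, were 197 to 204 and 279 to 345, with Il5ra and Cd200r3 below the lower quartiles throughout. Their largest log2 differences were those of Mcpt8 (1.03) and Prg2 (0.83), beside -0.01 for Prg3 and -0.04 for Epx. Mcpt8 measured 7.40, 5.50 and 5.44 in Fog1ki/ki. The sums of 5 megakaryocyte markers were 461 to 493 and 533 to 748, with 0 passing. Among them Pf4 had a log2 difference of 0.97 and Itga2b one of 0.31, beside 0.15 for Gp9, 0.05 for Vwf and -0.04 for Ppbp. Neutrophil and monocyte markers overlapped (1740 to 2350 and 1590 to 2110), as did erythroid markers (21000 to 21500 and 19300 to 21400), with 0 of 9 and 0 of 10 passing. In bulk sorted cells, more or fewer cells of a type and more or less RNA per cell cannot be told apart. The 4 measured gate genes summed to 1310 to 1350 in Fog1+/+ and 938 to 1160 in Fog1ki/ki. That sum is made up mostly of Kit. The other 3 gate genes had higher means in Fog1ki/ki. Averaged on the log2 scale, the 4 overlapped between genotypes (6.152 to 6.202 and 6.125 to 6.252). The part of the cell types named by these markers in the Ldhb difference was not tested.

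**Figure D2:**
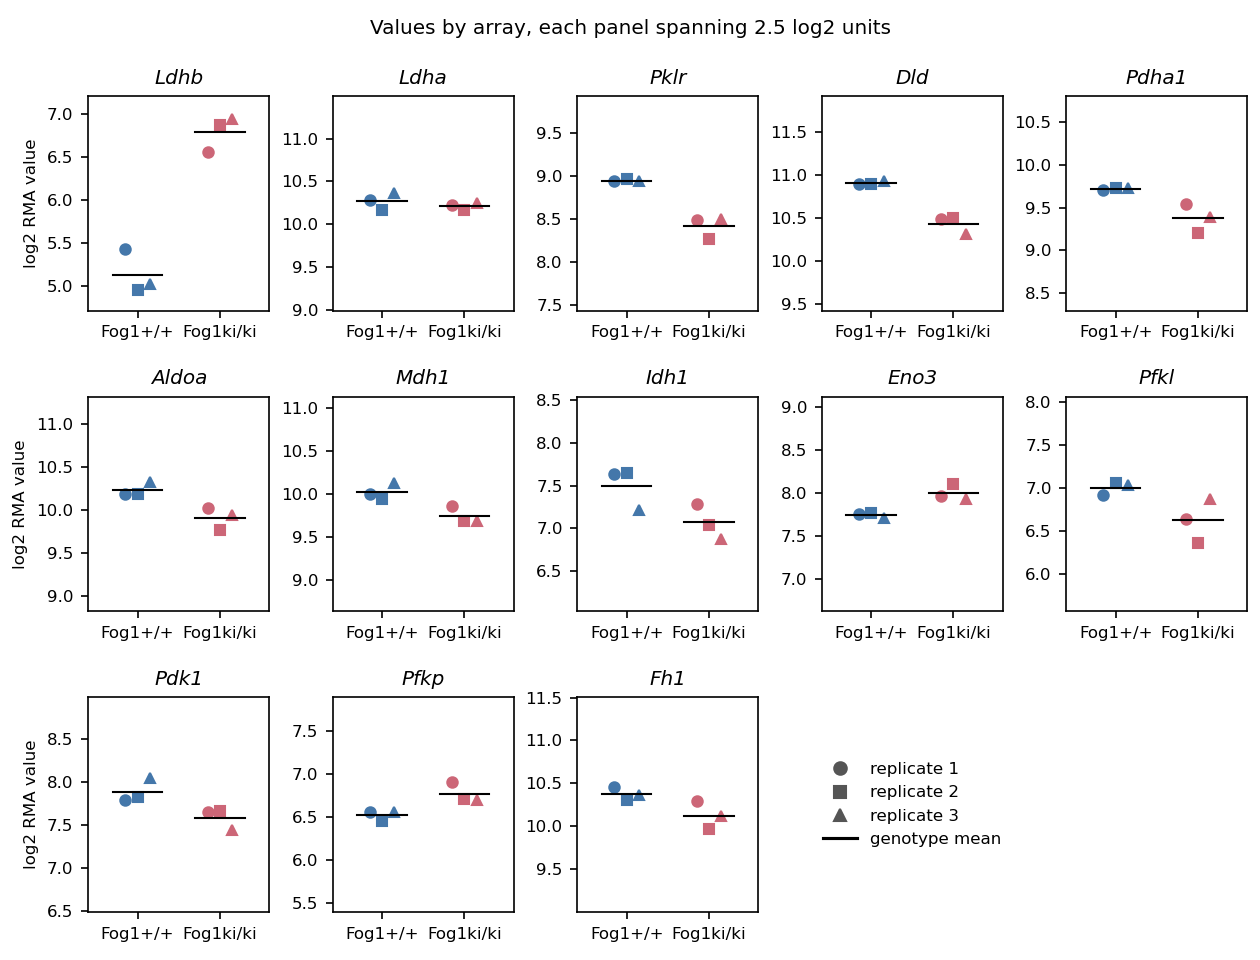
Log2 RMA values (y axis) of Ldhb, Ldha and the 11 other genes with an unadjusted p under 0.05, by genotype (x axis), with 1 symbol per array and a line at the mean of 3 arrays. Ldhb shows the widest gap, the Ldha arrays overlap, and Pklr and Dld have tight Fog1+/+ values above all Fog1ki/ki values.

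Glucose entry and its first commitment steps showed little difference. The glucose transporters Slc2a1 (GLUT1) and Slc2a3 (GLUT3) had log2 differences of -0.04 and -0.03, with overlapping arrays. Among the hexokinases, which trap glucose as glucose 6-phosphate, Hk1 had a log2 difference of -0.11, Hk2 one of 0.16 and Hk3 one of -0.10, and none passed. A second, dimmer Hk1 probe set, not used in the comparison, had -0.22. The widest interval of these 5 genes was that of Hk2, from -0.30 to 0.61 (95%).

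Phosphofructokinase, which commits sugar to glycolysis, is built from liver (Pfkl), muscle (Pfkm) and platelet (Pfkp) type subunits. Pfkl measured 6.91, 7.05 and 7.03 in Fog1+/+ and 6.64, 6.36 and 6.87 in Fog1ki/ki (log2 -0.37, SE 0.13, limma adjusted p = 0.370). Pfkp measured 6.55, 6.45 and 6.55 against 6.90, 6.70 and 6.69 (log2 0.25, SE 0.10, limma adjusted p = 0.449). The arrays did not overlap for either, in opposite directions, and neither passed. Without Fog1ki/ki replicate 2 the Pfkl difference was -0.24 on the log2 scale. Pfkm had a log2 difference of 0.07, and Pfkfb3, whose product makes the phosphofructokinase activator fructose 2,6-bisphosphate, one of -0.10.

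Aldolase splits the sugar into triose phosphates. Aldoa, its main form in red cells and muscle, measured 10.18, 10.18 and 10.32 in Fog1+/+ and 10.02, 9.76 and 9.94 in Fog1ki/ki, with no overlap (log2 -0.32, SE 0.10, limma adjusted p = 0.314). Aldoc, the brain form, had a log2 difference of 0.22. Tpi1, which interconverts the triose phosphates, had one of -0.25, and its value in Fog1ki/ki replicate 2 (9.67) stood apart from 10.40 and 10.57 in replicates 1 and 3.

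In the lower part of glycolysis, Pklr was the nearest to a call. It measured 8.94, 8.97 and 8.94 in Fog1+/+ and 8.49, 8.27 and 8.50 in Fog1ki/ki. Every Fog1ki/ki array lay below every Fog1+/+ array, by at least 0.44 log2 units. The means were 8.95 ± 0.02 and 8.42 ± 0.13 (SD, n = 3 each), a 1.44-fold lower level with a limma adjusted p of 0.0521. It passed without the dimmest 25% of genes (limma adjusted p = 0.0434) and with array weights (0.0301), and over all 15 alternatives the adjusted p ran from 0.0301 to 0.332. Its log2 difference stayed between -0.58 and -0.46. None of the 10 erythroid markers passed, beside 0.773% of all genes, so that count is no result about them. Their median log2 difference was -0.06, and 8 of the 10 means were lower (80%, beside 42.8% of all genes). The part of erythroid cells in the Pklr difference was not tested.

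Enolase makes phosphoenolpyruvate. Eno3, its muscle form, measured 7.75, 7.76 and 7.71 in Fog1+/+ and 7.96, 8.10 and 7.93 in Fog1ki/ki, without overlap (log2 0.26, SE 0.09, limma adjusted p = 0.367). Eno2, the neuronal form, had a log2 difference of 0.17. Bpgm, which makes the haemoglobin effector 2,3-bisphosphoglycerate, had one of 0.03 (95% confidence interval -0.22 to 0.28).

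Pyruvate dehydrogenase, the gate from glycolysis into the mitochondria, had lower means for all 4 of its listed subunits. Dld, the E3 subunit that it shares with 2-oxoglutarate dehydrogenase, measured 10.90, 10.89 and 10.93 in Fog1+/+ and 10.49, 10.50 and 10.31 in Fog1ki/ki. The genotypes did not overlap, and the level was 1.39-fold lower (log2 -0.47, SE 0.09, limma adjusted p = 0.0678). Dld passed with an intensity trend (0.0258) and with array weights (0.0493), in a range of adjusted p over 15 alternatives from 0.0258 to 0.543.

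Pdha1, the E1 alpha subunit on the X chromosome that is the target of the inhibitory kinases, measured 9.70, 9.73 and 9.73 in Fog1+/+ and 9.54, 9.20 and 9.39 in Fog1ki/ki. Again the arrays did not overlap (log2 -0.34, SE 0.11, limma adjusted p = 0.296). The E1 beta subunit Pdhb and the E2 core Dlat had log2 differences of -0.13 and -0.20, with overlapping arrays. Of the kinases that switch the complex off, Pdk1 measured 7.79, 7.82 and 8.05 against 7.65, 7.66 and 7.44 (log2 -0.30, SE 0.11, limma adjusted p = 0.392), without overlap. Without replicate 3 of both genotypes the Pdk1 difference was -0.15 on the log2 scale. Pdk2 and Pdk3 had log2 differences of -0.12 and 0.09.

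In the TCA cycle 11 of 12 genes had a lower mean in Fog1ki/ki (median log2 difference -0.15), and none passed. That count was 8 with quantile normalization repeated and 9 without Fog1ki/ki replicate 2. Idh1, the cytosolic NADP-dependent isocitrate dehydrogenase that stands outside the cycle proper, measured 7.64, 7.65 and 7.21 in Fog1+/+ and 7.29, 7.04 and 6.88 in Fog1ki/ki. Here the genotypes overlapped (log2 -0.43, SE 0.15, limma adjusted p = 0.365), and Idh2, its mitochondrial counterpart, had a log2 difference of 0.08.

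Both malate dehydrogenases had lower means in Fog1ki/ki. Mdh1, the cytosolic form of the malate-aspartate shuttle, lay between 9.95 and 10.13 in Fog1+/+ and measured 9.86, 9.69 and 9.69 in Fog1ki/ki (log2 -0.28, SE 0.10, limma adjusted p = 0.362). Mdh2, the mitochondrial form, stood at log2 -0.19 (limma adjusted p = 0.657). Neither gene overlapped between genotypes. Fh1, or fumarase, measured 10.46, 10.31 and 10.37 against 10.29, 9.97 and 10.12, also without overlap (log2 -0.25, SE 0.11, limma adjusted p = 0.497).

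The remaining TCA genes did not pass either. Idh3a, the catalytic subunit of the NAD-dependent isocitrate dehydrogenase, stood at log2 -0.27 without overlap (SE 0.12, limma adjusted p = 0.542), and its partner subunits Idh3b and Idh3g had -0.05 and -0.10. Citrate synthase (Cs), which opens the cycle, had a log2 difference of -0.06, and Ogdh, the E1 subunit of 2-oxoglutarate dehydrogenase, one of -0.05. The succinyl-CoA ligase subunits Suclg1 and Sucla2 had -0.20 and -0.11.

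In the pentose phosphate branch, which makes NADPH and ribose, none of 3 genes passed. Tkt (transketolase) had a log2 difference of -0.31 and Pgd, the 6-phosphogluconate dehydrogenase, one of -0.17. Both had their lowest value in Fog1ki/ki replicate 2, at 7.94 for Tkt and 8.61 for Pgd, against at least 8.56 and 9.18 in the other arrays. Taldo1 (transaldolase) stayed within 8.57 to 8.64 on all 6 arrays (log2 -0.003, 95% confidence interval -0.19 to 0.19).

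Counted over the list, the genotypes did not overlap in 14 of the 42 genes, 4 higher and 10 lower in Fog1ki/ki (9.52% and 23.8% of the list, beside 8.31% and 6.53% of all genes). None of the 42 was below the arrays' lower quartiles in both genotypes, whereas 3840 of all genes were. The number of lower means varied with the scaling and with 1 array. With quantile normalization repeated 25 of 42 means were lower (59.5%, against 49.7% of all genes), and with arrays centred on their medians 31 were (73.8%, against 59.0%). Without Fog1ki/ki replicate 2 it was 24 of 42, with a median of -0.03 beside 0.02 for all genes. Without Fog1+/+ replicate 3 the 12 genes with an unadjusted p under 0.05 became 5, 1 higher and 4 lower. Of all genes, 3.84% were then higher and 3.5% lower, against 4.99% and 4.58% in the main comparison. Without Fog1ki/ki replicate 1 there were 15, 3 higher and 12 lower (7.84% and 6.2% of all genes). Leaving out any other array gave 9 or 10.

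**Figure D3:**
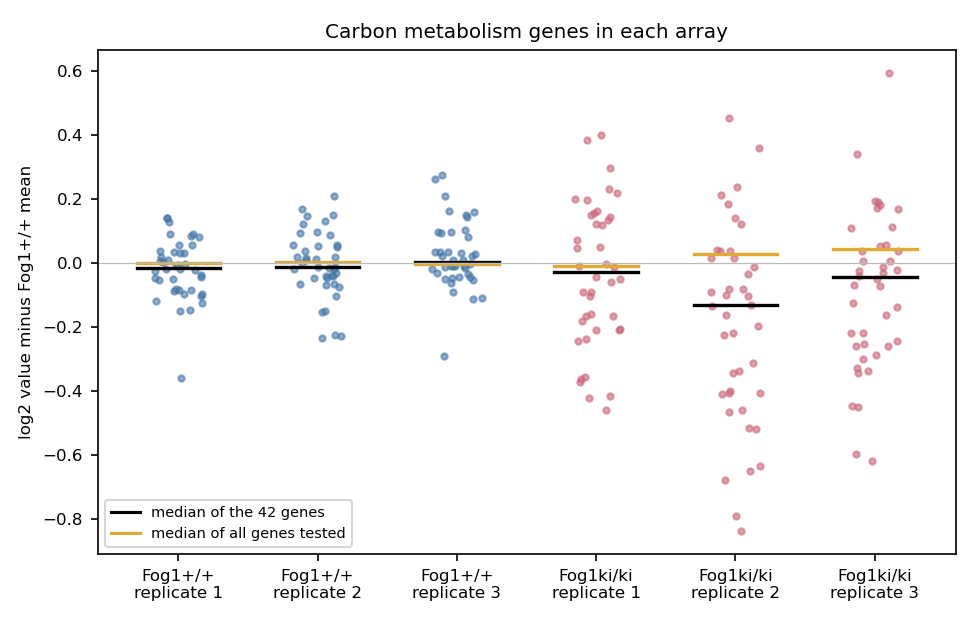
Log2 value minus the Fog1+/+ mean (y axis) in each of the 6 arrays (x axis), with a point per gene. Ldhb is left off, the black line is the median of all 42 genes and the yellow line that of all genes tested. The black line lies at -0.13 in Fog1ki/ki replicate 2 and at -0.03 and -0.05 in replicates 1 and 3.

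Besides lactate dehydrogenase, 11 pairs of isoenzymes or related carriers could be compared within arrays, of 15 pairs listed. The genotypes did not overlap in 3 of these 11. Single genes did not overlap in 14.8% of all genes tested, and no such share was computed for pairs, so the count is no result about the pairs. Pfkp minus Pfkl differed by 0.62 log2 units (SE 0.18), from -0.36, -0.60 and -0.48 in Fog1+/+ to 0.26, 0.34 and -0.18 in Fog1ki/ki. Aldoc minus Aldoa differed by 0.54 (SE 0.21) and Pfkm minus Pfkl by 0.44 (SE 0.15), and the pairs with Pfkl share that gene. Each had an exact permutation p of 0.1, the smallest possible, and 0.3 adjusted over 12 pairs. The other 8 pairs overlapped, among them Hk2 minus Hk1 (0.26), Slc16a3 minus Slc16a1 (0.07), Idh1 minus Idh2 (-0.51) and Mdh1 minus Mdh2 (-0.09). The change in the Ldhb balance, 1.72, was the largest of the 12.

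**Figure D4:**
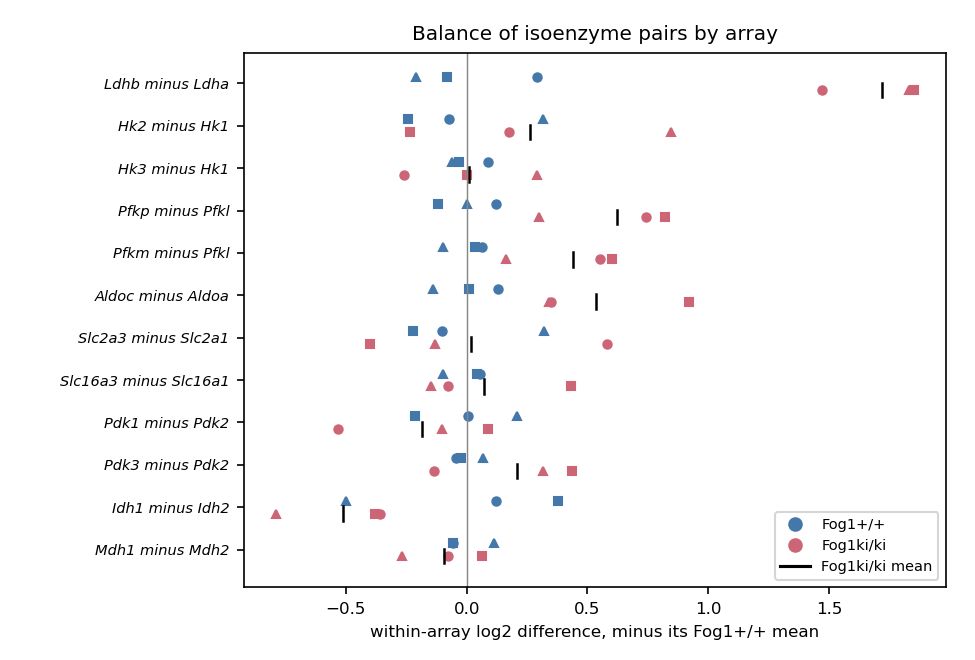
Within-array log2 difference of each isoenzyme pair minus its Fog1+/+ mean (x axis, log2 units), for 12 pairs (y axis). Points are arrays, with the symbol giving the replicate as in the plot of values by array, and black bars are Fog1ki/ki means. The Ldhb pair lies at 1.72, and the other 11 means lie between -0.51 and 0.62.

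A wider list held 64 further genes of carbohydrate and mitochondrial carbon metabolism and their regulators. In it 0 rose, 1 fell and 63 did not pass, which is 1.56% called beside 0.773% of all genes, with a median log2 difference of -0.002. The gene that fell was Aco1, cytosolic aconitase, which becomes an iron-regulatory RNA-binding protein when it loses its iron-sulphur cluster. It measured 8.53, 8.44 and 8.33 in Fog1+/+ and 7.95, 7.64 and 7.77 in Fog1ki/ki. All Fog1ki/ki values lay below all Fog1+/+ values, at a 1.57-fold lower level (log2 -0.65, SE 0.11, limma adjusted p = 0.0371). The call was lost in 9 of 15 alternatives, among them leaving out any array but Fog1ki/ki replicate 1, with log2 differences that stayed between -0.73 and -0.57.

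Other genes of that list are named after their values were seen. Slc16a7 (MCT2), a high-affinity monocarboxylate carrier, measured 4.87, 5.56 and 5.20 in Fog1+/+ and 5.78, 5.70 and 6.07 in Fog1ki/ki (log2 0.64, SE 0.17, limma adjusted p = 0.216). Egln1, the oxygen-sensing hydroxylase of HIF, and Hif1a, its target, had log2 differences of -0.63 (limma adjusted p = 0.120) and -0.44 (limma adjusted p = 0.248). For each of the 3 there was no overlap between genotypes, and none passed. In the wider list 13 of 64 genes did not overlap (20.3%, beside 14.8% of all genes). Pgm2, a phosphoglucomutase, stood at log2 -0.37 (limma adjusted p = 0.164). The succinate dehydrogenase subunits Sdha, Sdhb and Sdhd had -0.23, -0.23 and -0.29 beside 0.003 for Sdhc. Of the 64 genes, 9 had an unadjusted p under 0.05 in limma (14.1%, beside 9.57% of all genes), Sdhd among them but not Sdha or Sdhb. Those of the 9 not named above were Pgam2 (log2 0.27), Rpia (-0.37) and Pdpr (-0.39).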

How the data were processed

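Total RNA of sorted progenitors was extracted with Trizol, amplified with the WT-Ovation Pico system and hybridised as biotin-labelled cDNA to 1-colour arrays, per the labels' protocols. The authors deposited log2 values made with RMA, per the submitters' processing notes, whose software and settings are unstated in the sources used here. That they are log2 was inferred from their range.

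Of 25668 probe sets, 20777 had 1 gene symbol in the platform annotation, 232 several and 4659 none. The probe set with the highest mean represented a gene (1 of the 42 genes, Hk1, had several), with no filter on dim genes. Symbols of all 42 matched the RefSeq table (GRCm38.p6), from which gene order and sequences were taken, credited to RefSeq.

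Genotypes were compared over 19661 genes in R 4.3.3 by limma 3.58.1 (eBayes after lmFit, two-sided tests, Benjamini-Hochberg over all genes). Of these, 152 passed an adjusted p under 0.05. Isoenzyme pairs were compared by exact permutation. Scripts were tested on simulated data. The number of arrays limits the precision.

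The genes, the lists and the rule for named genes were chosen with earlier results of these data known. The rule gave array values for genes with an unadjusted p under 0.05 and for both lactate dehydrogenase subunits. Alternatives were quantile normalization repeated, median centring, a filter on dim genes, averaged probe sets, an intensity trend, array weights, a replicate block, a term for the arrays low in Y-linked genes, other thresholds and arrays left out. Figures were drawn with matplotlib 3.10.9.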

Additional observations from a re-analysis of the deposited data

How the results depend on the processing

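Ldhb kept its direction in 15 of 15 alternatives (log2 differences from 1.53 to 1.81) and its call in 14, the exception being the comparison without replicate 3 of both genotypes (1.53, limma adjusted p = 0.0865). The change in the Ldhb balance ran from 1.56 to 1.86 over 9 alternatives. Ldha turned to 0.036 with quantile normalization repeated. Of the 42 genes, 1 passed in the main comparison, 2 without the dimmest 25% of genes (Ldhb and Pklr), 2 with an intensity trend (Ldhb and Dld), 3 with array weights and 3 at an adjusted p under 0.1 (each Ldhb, Pklr and Dld), 12 at an unadjusted p under 0.05 and 0 in limma without replicate 3 of both genotypes (5 at an unadjusted p under 0.05). With each array left out in turn it was 1 throughout. Of the 64 wider pathway genes, 1 became 9 at an unadjusted p under 0.05, and 0 in limma with arrays centred on their medians, the replicate block, the term for the arrays low in Y-linked genes or without replicate 3 of both genotypes (12, 9, 9 and 5 at an unadjusted p under 0.05). It was 0 to 1 with each array left out. Over all genes, 152 calls became 24 without replicate 3 of both genotypes, 1882 at an unadjusted p under 0.05, and 60 to 134 with each array left out. Median centring gave 43 higher and 73 lower, against 74 and 78. Whether replicate numbers pair the samples is not settled by these values (correlations of same-numbered arrays from -0.01 to 0.13). Replicates 1 and 3 went best with their own number (0.07 and 0.13), and replicate 2 did not (-0.01). Replicate 3 of each genotype also had the low Y-linked values. With the replicate block 133 genes passed, Ldhb among them (limma adjusted p = 0.00639), Aco1 lost its call (0.0501), and the Ldhb balance had an exact p of 0.25, the smallest that 3 pairs allow. The cause of these shifts was not tested. Counts of lower means with other scalings or arrays left out were added after the data were seen. Values near the lower quartile, as for Ldhb in Fog1+/+, are the least certain, since no detection call was used.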

Other observations

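Some genes had a second probe set that the comparison did not use. The brighter Hk1 probe set, which stood for the gene, gave 12.38, 12.36 and 12.29 in Fog1+/+ and 12.24, 12.38 and 12.09 in Fog1ki/ki, and is annotated with a single accession. The dimmer one, annotated with several Hk1 transcripts, gave 9.49, 9.58 and 9.52 against 9.16, 9.21 and 9.57, a log2 difference of -0.22 beside -0.11. Pkm, the pyruvate kinase of most other tissues, had probe sets with log2 differences of 0.12 and -0.08, of opposite sign.

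Xist, the RNA of the inactive X chromosome, measured 11.02 and 11.03 in replicate 3 of Fog1+/+ and Fog1ki/ki, whose Y-linked genes were low. Fog1ki/ki replicate 2 had Xist at 9.13, against 5.18 to 5.90 in the other 3 arrays, together with high Y-linked values (Eif2s3y 9.44). That array was also the one with the lowest value in 18 of the 42 carbon metabolism genes. A link between these observations was not tested.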
